A study of Mus musculus with 12 samples.

Results

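Cadherins and non-clustered protocadherins are cell-surface adhesion molecules, and the account here covers every gene whose name on the array is Cdh or Pcdh followed by a number. The name rule gave 35 genes on 50 probes, out of 35834 named features on 55681 probes. By class they were 5 type I classical cadherins, 13 type II classical cadherins, 7 other cadherins, 3 delta-1 protocadherins, 5 delta-2 protocadherins and 2 other protocadherins. One of them, Cdh29, carries an older name of Cdhr4. Of the 35 genes, 33 were well above background in at least 1 embryonic tissue, and 26 could be tested in the cultures, which asked for a probe that passed background in both replicates of some culture group. The 9 not tested in the cultures were Cdh3, Cdh5, Cdh16, Cdh17, Cdh19, Cdh23, Cdh24, Cdh29 and Pcdh12. Cdh19 and Cdh29 were not well above background in any embryonic tissue.

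RNA was measured on 12 single-colour arrays, 1 per sample, each sample being a pool of 3 sets of experiments. The 8 culture arrays held neural cultures made from mouse embryonic stem cells of 129/Ola background, all male. They were harvested on day 16 of differentiation (DIV16). From day 0 they were exposed to the WNT inhibitor 53AH at 2.5 µM and the BMP inhibitor LDN193189 at 0.25 µM. In Chir_8-16 the inhibitors were given up to day 8 and the WNT agonist CHIR at 3 µM from day 8 to day 16, and in Chir_11-16 the switch was on day 11. In Wibi_0-16 the inhibitors were kept to day 16 with no agonist, and in Wibi_0-11 they were stopped on day 11 with no agonist. Each culture group had 2 replicates, the first on slide 2 and the second on slide 3, so a comparison of 2 groups rests on 4 arrays. The 4 remaining arrays, on slide 1, held midbrain, ventral telencephalon, hippocampus and cortex of E15 embryos of strain Sv129s6 of mixed sex, with 1 array a tissue and hence no test between tissues. The culture steps written out for the series add up to 7 days before the agonist, where the sample names give day 8. The dose of CHIR is stated for the day 8 cultures, and the labels give none for Chir_11-16. In bulk RNA of this kind, fewer cells of a type and less RNA per cell cannot be told apart.

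Classical cadherins bind their like on a neighbouring cell through repeated extracellular domains held rigid by calcium, and their cytoplasmic tails bind beta-catenin and p120-catenin, which link them to actin. Beta-catenin is also the effector of canonical WNT signalling, the pathway that 53AH blocks and CHIR, a GSK3 inhibitor, activates. Delta protocadherins lack the catenin-binding tail and are known in the embryonic brain for patterned expression in regions, layers and axon tracts. Combinations of type II cadherins and delta protocadherins are known to differ between brain nuclei and to take part in sorting neurons and guiding axons.

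The tail that binds beta-catenin is conserved among type II cadherins, and 3 of the array probes lie on it, which matters for how far the genes can be told apart. The probes of Cdh6, Cdh9 and Cdh10 are given 5′ to 3′ as the scanner files hold them, with capitals at the 35 bases that are identical in all 3 when aligned without gaps. On mm9 the Cdh6 probe lies at chr15:12963981-12964040 on the minus strand, the Cdh9 probe at chr15:16785915-16785974 on the plus strand and the Cdh10 probe at chr15:18943342-18943401 on the plus strand.
Cdh6: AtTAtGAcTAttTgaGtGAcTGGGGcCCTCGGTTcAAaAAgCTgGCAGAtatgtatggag
Cdh9: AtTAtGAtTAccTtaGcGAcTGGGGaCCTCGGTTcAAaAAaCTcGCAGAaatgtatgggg
Cdh10: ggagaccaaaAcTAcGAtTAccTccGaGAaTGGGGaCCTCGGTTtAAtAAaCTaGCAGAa
The Cdh6 and Cdh9 probes matched at 50 of 60 bases (83.3%), the Cdh9 and Cdh10 probes at 41 of 50 aligned bases (82.0%), and the Cdh6 and Cdh10 probes at 35 of 50 (70.0%). Whether the RNA of one of these genes contributes signal to another's probe was not tested. Their patterns over the arrays differed.

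Signals are given as a percentage of the 75th percentile of all non-control spots on the same array, called the relative signal, and levels are compared only between arrays for the same probe. The tissue labels were checked against marker genes. En2 stood at 1368% in midbrain and at 7.27 to 13.2% in the telencephalic tissues. Nkx2-1 stood at 145% in ventral telencephalon and 0.315 to 2.1% in the other 3 tissues, and Zbtb20 at 2949% in hippocampus and 355 to 681% elsewhere. Not every listed marker singled out its tissue. Lmx1b had 20.9% in midbrain and 23.6% in cortex, and Lhx6 1120% in ventral telencephalon and 1278% in cortex. Gad1 had 1087% in ventral telencephalon and 1100% in midbrain, and Lef1 886% in hippocampus and 1527% in midbrain. The cortical genes Tbr1 and Neurod6 stood at 4535% and 1111% in the ventral telencephalon sample, against 5147% and 4139% in cortex. That sample thus carried signal of some cortical markers. Emx1 and Fezf2 were far lower there, at 80.2% and 155%, against 373% and 913% in cortex. All 7 neuronal markers were well above background on all 12 arrays. So were all 7 markers of radial glia and progenitors, which summed to 19009 to 35843% in the cultures and 18183 to 25485% in the tissues.

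**Figure D1:**
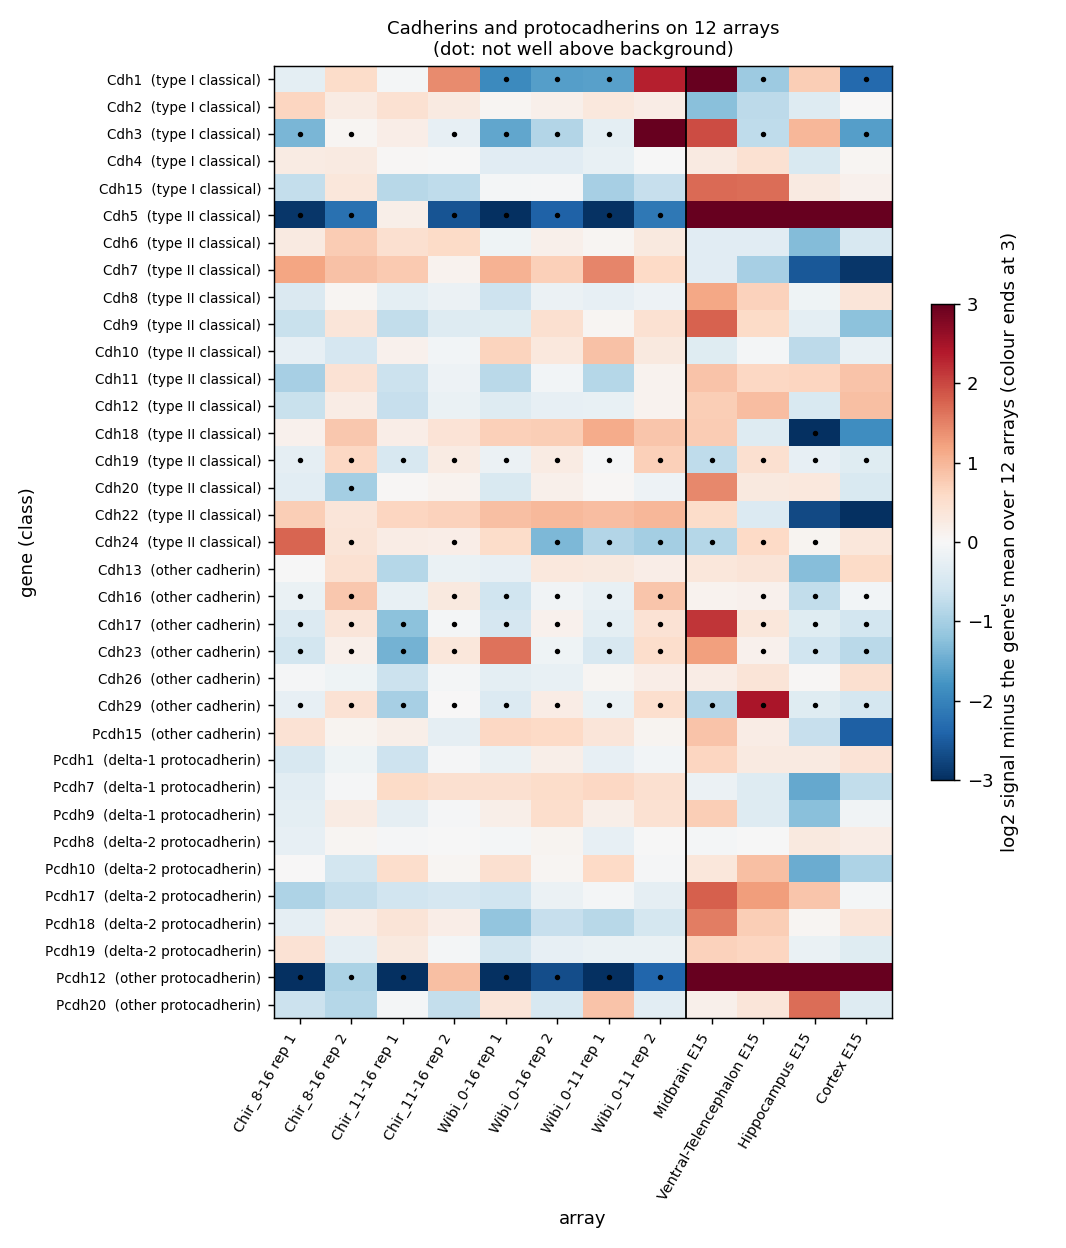
Log2 signal of the 35 genes (rows, with class) on the 12 arrays (columns), minus the gene's own mean over the 12 arrays; a dot marks a probe not well above background. Cdh5 and Pcdh12 are well above background in all 4 E15 tissues and in 1 culture array each, and Cdh22, Cdh7 and Cdh18 are low in E15 cortex and hippocampus.

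Among the E15 tissues the cadherins and protocadherins were most often highest in midbrain. Of the 33 measured members, 26 were well above background in all 4 tissues, and only these have an order over all 4. The highest tissue was midbrain for 15 of them, ventral telencephalon for 5, hippocampus for 2 and cortex for 4, while over all 22251 genes well above background in the 4 tissues 24.8% were highest in midbrain and 37.3% in cortex. The gap between a member's highest and lowest tissue had a median of 1.38 on the log2 scale, against 0.63 over those genes, and was at least 2-fold in 18 members (69.2%), against 25.3% of those genes. The other 7 were Cdh1 and Cdh3, above background in 2 tissues, Cdh18 in 3, and Cdh16, Cdh17, Cdh23 and Cdh24 in 1. Cdh16, Cdh17 and Cdh23 were above background in midbrain alone at 1.82%, 2.44% and 1.46%, and Cdh24 in cortex alone at 2.07%. The lowest log2 relative signal well above background was -6.54 on the midbrain array and -5.12 on the ventral telencephalon array. Cdh16 and Cdh24 had 1.85% and 2.49% in ventral telencephalon without passing there, so passing in 1 tissue alone does not show a higher level there. These are counts over 4 arrays without replicates.

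A tissue was said to be marked by a gene that was well above background there and at least 2-fold higher than in each of the other 3 tissues. Of all genes, 6.44% marked some tissue in this way, and 5 of the 33 members did. Midbrain was marked by Cdh1, Cdh9, Cdh18 and Cdh20 (3.01% of all genes marked it), hippocampus by Pcdh20 (1.38% of all genes), and ventral telencephalon and cortex by no member (1.45% and 0.603% of all genes). Cdh20 was the midbrain gene nearest the limit, at 2.18 times the next tissue, and Cdh22 was just short of it at 1.93 times. Each mark rests on 1 array.

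Cdh1, the epithelial cadherin, had a relative signal of 39.3% in midbrain and 4.2% in hippocampus, and was not well above background in ventral telencephalon or cortex. The midbrain signal was 9.35 times that in hippocampus. The same 2 samples had the highest sums of choroid plexus markers, 3947% in midbrain and 3467% in hippocampus, against 482% in ventral telencephalon and 23.3% in cortex. Within these sums Otx2, which is also on the midbrain list, stood at 1903% in midbrain and 248% in hippocampus. Ttr stood at 1890% in midbrain and 2834% in hippocampus. Mesenchymal markers likewise summed to 4734% in midbrain and 1945% in hippocampus, against 364% in ventral telencephalon and 399% in cortex, and the part of either cell type in the tissue values of the members was not tested. Cdh9, a type II cadherin known for its part in synapse formation in the mouse hippocampus and retina, had 79.6% in midbrain, 35.0% in ventral telencephalon, 19.1% in hippocampus and 10.01% in cortex. The order held a 7.95-fold span with each step downward from midbrain to cortex. Cdh18 had 35.9% in midbrain, 16.2% in ventral telencephalon and 5.75% in cortex, and in hippocampus it was not well above background, where the limit makes midbrain at least 18.9-fold higher. Cdh20 had 21.2% in midbrain and 9.63%, 9.72% and 5.76% in ventral telencephalon, hippocampus and cortex.

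Pcdh20, a protocadherin outside the delta groups used here, was the hippocampal mark, with 275% in hippocampus against 96.0% in midbrain, 111% in ventral telencephalon and 65.2% in cortex. It was 4.21 times as high in hippocampus as in cortex and 2.47 times as high as in the next tissue. Cdh1 was not well above background in cortex and was at least 3.11 times as high in hippocampus. For Pcdh15 the brightest probe was 3.40 times as high in hippocampus as in cortex, but its probes disagreed. Several genes had the opposite order of these 2 tissues: Cdh13 was 3.62 times, Cdh12 2.58 times and Pcdh9 2.19 times as high in cortex as in hippocampus, and Cdh18 at least 3.01 times.

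Low signal in 1 tissue was looked for after the values had been seen, and 3.87% of all genes were at least 2-fold lower in some tissue than in each of the others. Cdh12, Cdh13 and Cdh18 were at least 2-fold lower in hippocampus than in each of the other tissues (0.997% of all genes were). Cdh13, which is anchored to the membrane by a lipid and has no cytoplasmic tail, had 360.3% in hippocampus against 1101% in midbrain, 1129.8% in ventral telencephalon and 1303% in cortex. Cdh12 had 34.8% in hippocampus and 79.5 to 92.1% in the other 3 tissues. In cortex, the brightest probe of Pcdh15, known for its role in the tip links of hair cells in the ear, was at least 2-fold lower than in each other tissue, and no other member was (1.58% of all genes). No member was so low in midbrain (1.13% of all genes) or ventral telencephalon (0.174%). That Pcdh15 probe had 7.46% in cortex, 74.0% in midbrain, 48.0% in ventral telencephalon and 25.3% in hippocampus. The other Pcdh15 probes differed in direction. Dimmer probes with 17.2% and 7.82% in midbrain and 1.85% and 3.87% in cortex kept the same order of tissues. Another, on a different transcript, ran the opposite way, with 12.8% in cortex, 5.48% in midbrain, 6.77% in ventral telencephalon and 9.65% in hippocampus. No direction is therefore given for the gene.

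In all, 5 members, Cdh18 again among them, were at least 2-fold higher in both midbrain and ventral telencephalon than in both hippocampus and cortex, a pattern also chosen after the values had been seen and held by 2.87% of all genes. They were Cdh7, Cdh15, Cdh18, Cdh22 and Pcdh10. Cdh22, a type II cadherin, had 959.8% in midbrain and 496% in ventral telencephalon, against 101% in hippocampus and 51.0% in cortex, an 18.8-fold span. Cdh7 had 95.0% and 60.1%, against 20.5% and 16.0%, in the same order of tissues. Cdh15, known from muscle as M-cadherin, had 61.7% and 60.3%, against 22.6% and 20.9%. Pcdh10, a delta-2 protocadherin known to be needed for the growth of striatal and thalamocortical axons in the mouse, had 906% and 1329%, against 254% and 374%. Its 2 probes read different transcripts, and the second had 234% and 289%, against 32.7% and 78.9%, so both showed the order.

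**Figure D2:**
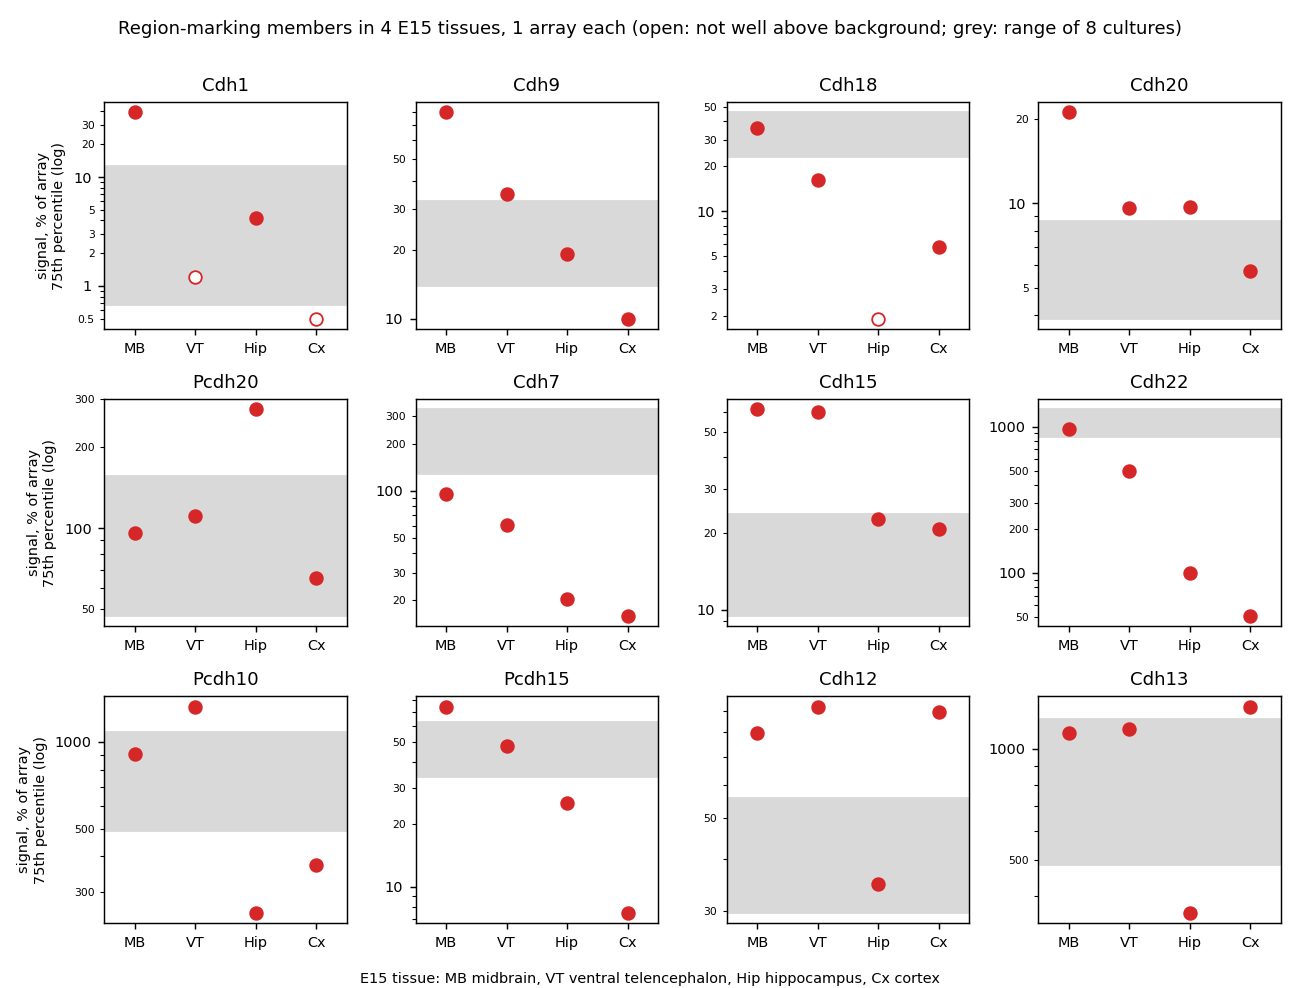
Relative signal (percent of the array's 75th percentile, log axis) of 12 members in E15 midbrain, ventral telencephalon, hippocampus and cortex, 1 array each; open points are not well above background and the grey band is the range over the 8 cultures. Cdh22 and Cdh7 step down from midbrain to cortex, and their 8 cultures lie above hippocampus and cortex.

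The remaining classical cadherins varied less between the tissues. Cdh2, the neural cadherin of progenitors and neurons, was the one with the opposite order, at 2214% in midbrain, 3081% in ventral telencephalon, 4045% in hippocampus and 5361% in cortex, so cortex was 2.42 times midbrain. Cdh4, or R-cadherin, had 1522%, 1746%, 920.4% and 1326% in that order of tissues. Cdh6 had 35.8%, 35.8%, 18.3% and 32.5%, and Cdh8 had 125%, 89.3%, 50.8% and 71.3%. Both are type II cadherins known for regional expression in the forebrain, and here both were lowest in hippocampus. Cdh10 ranged from 74.7 to 124% and Cdh11 from 83.2 to 98.0%, a difference of 1.18-fold for Cdh11. Cdh26, grouped with the other cadherins, ranged from 625 to 857%.

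Among the delta protocadherins, Pcdh1, Pcdh7, Pcdh9, Pcdh17, Pcdh18 and Pcdh19 were highest in midbrain by the brightest probe of each. Pcdh17, a delta-2 protocadherin known to control axon extension in the amygdala and synapses in the basal ganglia of the mouse, had 2076% in midbrain, 1433% in ventral telencephalon, 1059.6% in hippocampus and 576% in cortex. Pcdh18 had 503%, 288%, 179% and 224% in that order. Pcdh19, the gene behind an X-linked epilepsy in people, had 1239%, 1194%, 661% and 596%. Pcdh9 had 269%, 123%, 67.6% and 148%, and Pcdh7 had 80.2%, 69.2%, 31.5% and 54.9%. Pcdh8, which takes part in the turnover of synaptic N-cadherin, and Pcdh1 were nearly even, spanning 1.27-fold and 1.30-fold.

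Cdh7, Cdh18 and Cdh22 were far higher in the cultures than in E15 cortex and hippocampus, and Cdh5 and Pcdh12 far lower than in any tissue. Cultures and tissues were on different slides, so culture and slide cannot be told apart in this comparison. No member was at least 2-fold above all 4 tissues in all 8 cultures (0.779% of all genes were). Cdh7, Cdh18 and Cdh22 were at least 2-fold above both cortex and hippocampus in all 8 cultures, as were 2.83% of all genes. Cdh22 ran from 848 to 1306% in the cultures with a median of 1152%, and every culture array was at least 8.42 times either tissue. Cdh7 ran from 129.6 to 331% and Cdh18 from 22.8 to 45.6%. These are 3 of the 5 members that were high in midbrain and ventral telencephalon, and the other two parted: Pcdh10 had 491 to 1089% in the cultures, 1.31 times or more above both tissues, whereas Cdh15 had 9.48 to 23.8%, around or below the levels of cortex and hippocampus.

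Cdh5 and Pcdh12 were the members lower than every tissue by at least 2-fold in all 8 cultures, as were 1.44% of all genes, and no further member was so far below cortex and hippocampus alone (2.40% of all genes). Cdh5 is the cadherin of endothelial junctions, and Pcdh12 is likewise known as an endothelial protocadherin. Cdh5 was not well above background in 7 of 8 cultures and had 3.78% in Chir_11-16 replicate 1, against 134% in midbrain, 67.0% in ventral telencephalon, 74.4% in hippocampus and 55.0% in cortex. Pcdh12 was not well above background in 7 of 8 cultures and had 6.63% in Chir_11-16 replicate 2, against 77.9 to 98.7% in the 4 tissues. With dim spots set to the lowest signal well above background on their array, the cultures lay on average at least 35.9-fold (Cdh5) and at least 41.1-fold (Pcdh12) below the mean of the tissues. Of 7 endothelial markers, 3 or 4 were well above background in each culture and 7 in each tissue. Tek and Emcn were not well above background in any culture, Tie1 was in 2 cultures and Cldn5 in 4, where Cldn5 reached at most 4.3% against 558 to 1028% in the tissues. The summed signal of the list was 402 to 903% in the cultures and 1609 to 1867% in the tissues, with Kdr alone giving 366 to 858% in the cultures. The part of endothelial cells in the difference was not tested.

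**Figure D3:**
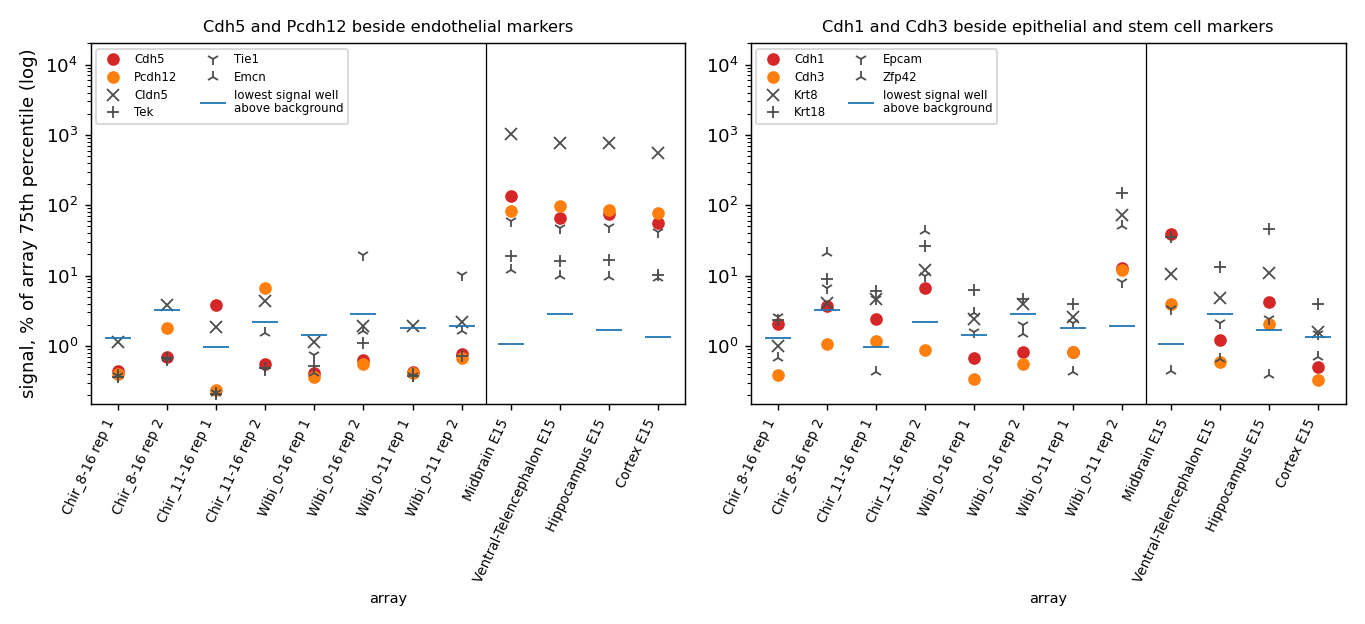
Relative signal (percent of the array's 75th percentile, log axis) on the 12 arrays of Cdh5 and Pcdh12 with 4 endothelial markers (left) and of Cdh1 and Cdh3 with 4 epithelial or stem cell markers (right); the blue bar is the lowest signal well above background on that array. Wibi_0-11 replicate 2 holds the highest culture signal of Cdh1 (12.8%), Cdh3 (12.1%) and Krt18 (147%).

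The culture groups were compared with limma on log2 relative signal, and a gene was called where its p, adjusted by Benjamini and Hochberg's method across the 25540 genes tested, was under 0.05. Same-numbered replicates of different groups shared a slide and deviated together, so each comparison was also fitted with the replicate number as a block. Replicate number and slide coincide. In the blocked fit 8 of 26 members differed between slide 3 and slide 2 at an adjusted p under 0.05, 4 higher and 4 lower on slide 3, with 34.4% of all genes called. The shift was 0.90 ± 0.17 (SE) on the log2 scale for Cdh11 (adjusted p = 0.0139 in limma) and -0.72 ± 0.17 for Pcdh20 (adjusted p = 0.027 in limma).

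The pooled comparison asked whether cadherins differ between cultures that received the WNT agonist and those that received inhibitors alone. In the agonist cultures the inhibitors ended on day 8 or day 11, and in the inhibitor-only cultures on day 11 or day 16. Agonist and time under inhibitors thus differ together here and cannot be told apart in this comparison. Without the block no member was called in limma (0.00783% of all genes were), and 8 members had an unadjusted p under 0.05, with 15.3% of all genes. With the block 11 members had an unadjusted p under 0.05 in limma, with 22.5% of all genes. With the replicate block 2 members were called, where 3.40% of all genes were: Pcdh18 was higher and Cdh10 lower in the agonist cultures. Of the 26 members, 8 were higher and 18 lower in the agonist cultures, with a median difference of -0.20 on the log2 scale against 0.00 over all genes. The direction was the same within both slides for 22 of them, a count with no share over all genes to set beside it. In the comparisons of single groups given below it was the same for 14 to 18 of the 26.

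Marker genes of cell types were summed for the same contrast, and 4 of the 13 marker lists had summed signals that did not overlap between the sides. The oligodendrocyte list summed to 53.9 to 295% in the agonist cultures, with 5 or 6 of 6 genes well above background (Gpr17 was not in Chir_8-16), against 462 to 1100.3% and 6 of 6 in the inhibitor-only cultures. Olig1 alone had 7.19 to 105% in the agonist and 253 to 629% in the inhibitor-only cultures. Olig2, Gpr17 and Pdgfra, which is also on the mesenchyme list, were lower without overlap as well, while Sox10 and Cspg4 overlapped. The choroid plexus list summed to 198 to 852% in the agonist cultures (3 to 5 of 5 genes). In the inhibitor-only cultures it summed to 65.3 to 197% (3 or 4 of 5). The largest part of each sum was Otx2, which is also on the midbrain list. Otx2 alone had 105 to 781% in the agonist and 35.9 to 165% in the inhibitor-only cultures, which overlap. Ttr reached 62.4% in 1 agonist culture and at most 5.63% in the other 3, against at most 2.80% in the inhibitor-only cultures. Skeletal muscle markers summed to 52.9 to 121% in the agonist cultures (4 of 6 genes) and 34.9 to 46.2% in the inhibitor-only cultures (3 or 4 of 6). The largest part was Tnnt1, at 33.4 to 91.6% and 14.4 to 26.9%, and Myog and Des were not well above background in any culture. Neuronal markers summed to 28640.4 to 32472% in the agonist cultures and 33164 to 35825% in the inhibitor-only cultures, with 7 of 7 on every array. Of these, Stmn2 and Map2 were lower without overlap in the agonist cultures, Stmn2 at 7699 to 9465% against 10747 to 11392%. The other neuronal genes overlapped, and Tubb3 reached 10836% in the agonist cultures and 8636% in the inhibitor-only cultures. The part of these cell types in the differences of Pcdh18, Cdh10 and the other members was not tested.

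Pcdh18, a delta-2 protocadherin whose tail binds the adaptor Dab1 of the reelin pathway, had a relative signal of 143% and 201% in Chir_8-16 and 224% and 197% in Chir_11-16, against 76.3% and 108% in Wibi_0-16 and 98.3% and 121% in Wibi_0-11. The lowest of the 4 agonist cultures lay above the highest of the 4 inhibitor-only cultures. The difference was 0.93 ± 0.20 (SE) on the log2 scale, or 1.90-fold, with an adjusted p of 0.0955 in limma, and with the block 0.93 ± 0.17 and an adjusted p of 0.0446. It was 1.05 within slide 2 and 0.80 within slide 3. Leaving out any 1 of the 8 arrays raised the blocked adjusted p in limma to between 0.079 and 0.131, so the call rests on all of them, while the difference stayed between 0.77 and 1.03.

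Cdh10, a type II cadherin, had 108% and 90.5% in Chir_8-16 and 142% and 123% in Chir_11-16, against 206% and 162% in Wibi_0-16 and 236% and 159.6% in Wibi_0-11. The groups again did not overlap, and on slide 2 each step from Chir_8-16 through Chir_11-16 and Wibi_0-16 to Wibi_0-11 was upward. The difference was -0.72 ± 0.19 (SE) on the log2 scale, or 1.65-fold lower in the agonist cultures, with an adjusted p of 0.129 in limma, and of 0.0483 with the block (SE 0.15). Leaving out any 1 array gave blocked adjusted p values in limma between 0.0744 and 0.134 and a difference between -0.83 and -0.62. Cdh22 was the third member whose 2 sides did not overlap, at 848 to 1083% in agonist cultures and 1225 to 1306% in inhibitor-only cultures (-0.34 ± 0.12, adjusted p = 0.213 in limma, and 0.124 with the block). In all, 3 of 26 members did not overlap, with 12.3% of all genes, and none of them was 2-fold apart, with 1.20% of all genes.

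The 250 bases before the gene start of both called members are given for reference, 5′ to 3′ on the strand of the gene and from RefSeq on GRCm38.p6, at chr3:49757317-49757566 (minus strand) for Pcdh18 and chr15:18820079-18820328 (plus strand) for Cdh10.
Pcdh18: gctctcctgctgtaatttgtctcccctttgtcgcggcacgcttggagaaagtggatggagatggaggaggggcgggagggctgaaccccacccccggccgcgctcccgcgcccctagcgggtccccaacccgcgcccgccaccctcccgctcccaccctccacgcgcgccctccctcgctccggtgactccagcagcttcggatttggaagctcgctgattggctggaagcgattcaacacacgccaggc
Cdh10: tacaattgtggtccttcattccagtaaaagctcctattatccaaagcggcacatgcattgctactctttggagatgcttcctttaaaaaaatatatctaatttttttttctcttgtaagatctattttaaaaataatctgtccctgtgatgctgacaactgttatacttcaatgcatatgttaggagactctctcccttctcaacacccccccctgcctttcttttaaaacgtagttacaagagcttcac
They were searched on both strands for CTTTGAT, the core bound by TCF and LEF factors, and for CAGGTG, a form of E-box bound by Snai and Zeb factors, and neither holds either motif, which is why no letters are in capitals. Among 25 promoters of 22 members in the table, 0 held CTTTGAT and 3 held CAGGTG (of Cdh7 and Pcdh15), against 3.21% and 17.2% of all 32851 promoters. The G and C content was 68.0% before Pcdh18 and 36.8% before Cdh10, with a median of 52.4% over all promoters.

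**Figure D4:**
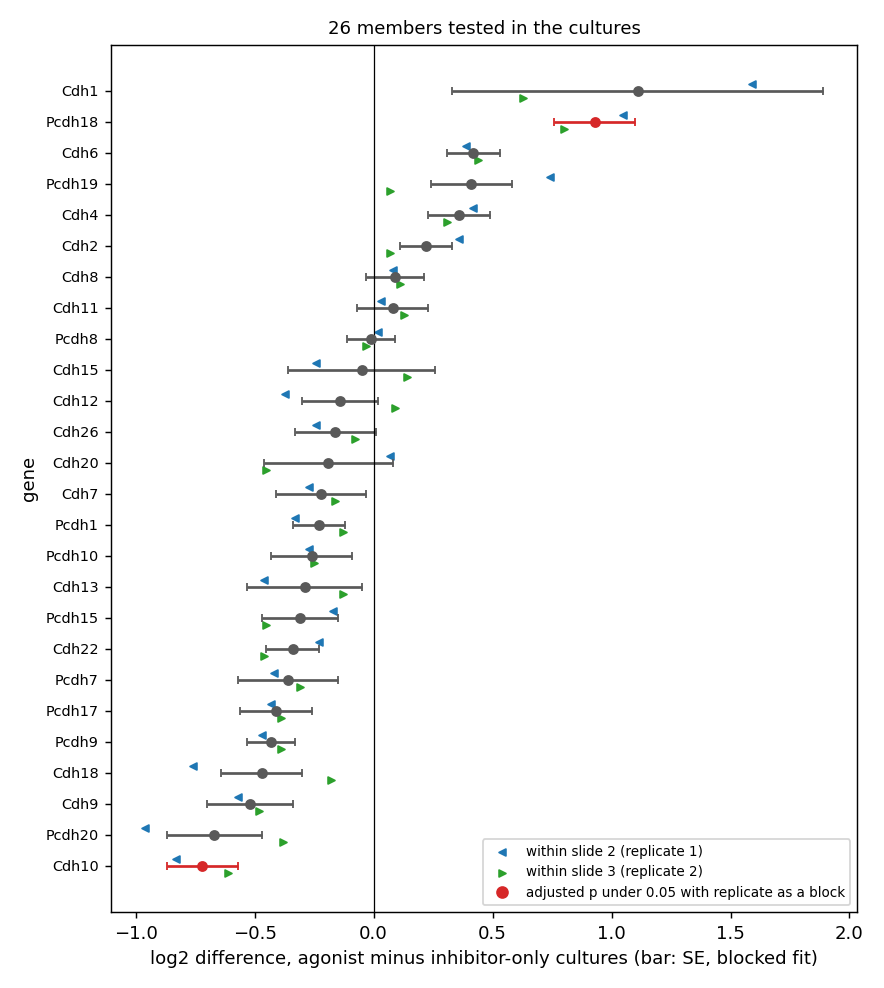
Log2 difference, agonist minus inhibitor-only cultures, of the 26 tested members (points, with the SE of the fit with replicate as a block), and the same difference within slide 2 and within slide 3 (triangles). Pcdh18 (0.93) and Cdh10 (-0.72) are called in the blocked fit. The point of Cdh1 rests on 3 inhibitor-only arrays that were not well above background.

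The other members were not called in either fit of this comparison. Cdh6 had a difference of 0.42 ± 0.15 on the log2 scale (adjusted p = 0.23 in limma, and 0.0718 with the block), and a second probe that matches Cdh6 by accession alone had 0.44 ± 0.21. Pcdh9 had -0.43 ± 0.16 (adjusted p = 0.254 in limma, and 0.0565 with the block), with -0.31 and -0.02 from its other probes. Cdh9, whose probe resembles that of Cdh6, had -0.52 ± 0.29 (adjusted p = 0.468 in limma). Cdh4 had 0.36 ± 0.13, with 0.33 and 0.31 from its other probes, and Cdh2 had 0.22 ± 0.13. Differences near 0 were those of Pcdh8 (-0.01 ± 0.12), Cdh15 (-0.05 ± 0.33), Cdh8 (0.09 ± 0.16) and Cdh11 (0.08 ± 0.35), and the 2 probes of Cdh11 disagreed, the second giving -0.35 ± 0.37.

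Pcdh19 had 1023% and 637% in Chir_8-16 and 936% and 734% in Chir_11-16, against 515% and 642% in Wibi_0-16 and 662% and 661% in Wibi_0-11. Its difference was 0.74 within slide 2 and 0.07 within slide 3. Pcdh10 had -0.26 ± 0.25 and -0.27 from its second probe. Cdh13 had -0.29 ± 0.28 and Pcdh17 -0.41 ± 0.16, with adjusted p values of 0.764 and 0.272 in limma.

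Cdh1 was well above background in the 4 agonist cultures and in 1 of the 4 inhibitor-only cultures. Its signal was 2.06% and 3.71% in Chir_8-16 and 2.46% and 6.75% in Chir_11-16, against 12.8% in Wibi_0-11 replicate 2 and 0.673 to 0.828% on the other 3 inhibitor-only arrays. It passed the filter on dim probes through the agonist groups, and 3 of the 4 inhibitor-only arrays held no signal well above background, so the fitted difference of 1.11 ± 0.94 on the log2 scale (adjusted p = 0.719 in limma) gives no measured fold. That fitted value was 0.12 for Cdh1 after normexp and quantile normalization and 0.49 in the deposited table. Cdh3, or P-cadherin, reached 12.1% in the same Wibi_0-11 replicate 2 and was at most 1.17% in the other 7 cultures. All 5 epithelial markers were well above background on that array, as on 3 of the agonist arrays, and their summed signal was 260% there against 21.0 to 72.2% on the other 7 culture arrays. The stem cell gene Zfp42 had 51.3% on the same array, against 43.0% in Chir_11-16 replicate 2, 20.8% in Chir_8-16 replicate 2 and at most 2.93% elsewhere. Among the cultures, Pou5f1, Dppa5a and Utf1 of the pluripotent cell list were also highest on that array, and Nanog, Esrrb and Tdgf1 were not. The list summed to 1373% there and to 638 to 6725% on the other culture arrays, with Tdgf1 alone giving 6558% in Chir_8-16 replicate 1. The part of such cells in the Cdh1 and Cdh3 signal was not tested.

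Starting the agonist on day 8 rather than stopping the inhibitors on day 11 without agonist (Chir_8-16 against Wibi_0-11) gave no called member in either fit, with 0.0117% of all genes called without the block and 0.301% with it. In limma 3 members had an unadjusted p under 0.05 without the block (9.59% of all genes) and 9 with it (22.1%). One member, Pcdh20, was at least 2-fold apart without overlap, where 3.97% of all genes were. It had 55.1% and 47.4% in Chir_8-16, against 156% and 68.8% in Wibi_0-11, a difference of -1.02 ± 0.49 (adjusted p = 0.593 in limma, and 0.121 with the block). On both slides Pcdh20 had ascending values in the order Chir_8-16, Chir_11-16, Wibi_0-16 and Wibi_0-11. It had 82.7% and 52.5% in Chir_11-16 and 111% and 61.6% in Wibi_0-16. In Chir_8-16 the inhibitors also ended earliest, so an early agonist and a short time under inhibitors cannot be told apart here.

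Cdh10 stood next, with a difference of -0.97 ± 0.26 (adjusted p = 0.37 in limma, and 0.0667 with the block). Pcdh7, a delta-1 protocadherin, had 73.8% and 88.0% in Chir_8-16, against 141% and 128% in Wibi_0-11 (-0.73 ± 0.17, adjusted p = 0.32 in limma, and 0.102 with the block). Its other culture groups lay between 127 and 136%, so the Chir_8-16 arrays stood below the other 6. Its dimmer probes did not share the pattern. A second probe on the same transcript had 15.7% and 11.0% in Chir_8-16, against 17.5% and 11.5% in Wibi_0-11. The remaining probe, on another transcript, had 6.06% and 6.74% in Chir_8-16, against 5.36% and 4.30% in Wibi_0-11, and averaging the 3 probes gave a Chir_8-16 minus Wibi_0-11 difference of -0.15. Pcdh17 had 314% and 365% in Chir_8-16, against 579% and 496% in Wibi_0-11 (-0.66 ± 0.22, adjusted p = 0.443 in limma). In all, 10 of 26 members did not overlap between these groups, with 35.6% of all genes.

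**Figure D5:**
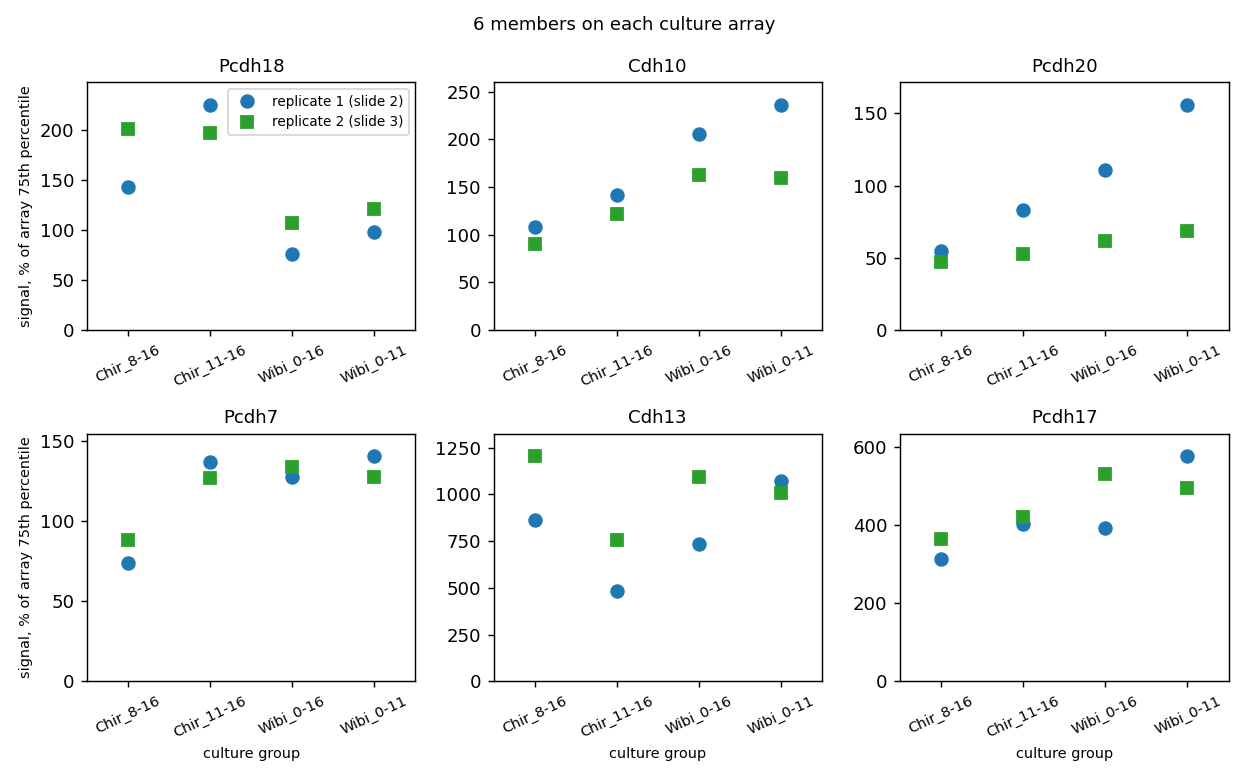
Relative signal (percent of the array's 75th percentile) of 6 members on each of the 8 culture arrays; circles are replicate 1 (slide 2) and squares replicate 2 (slide 3). Pcdh18 is higher in the 4 agonist arrays than in the 4 inhibitor-only arrays, Cdh10 lower, and Pcdh7 is lowest in Chir_8-16.

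Adding the agonist on day 11 after equal time under the inhibitors (Chir_11-16 against Wibi_0-11) likewise gave no called member in either fit, where 0 genes in all were called without the block, 1207 had an unadjusted p under 0.05, and 0.0157% were called with the block. In limma 2 members had an unadjusted p under 0.05 without the block (4.73% of all genes) and 8 with it (12.4%). Pcdh18 had the smallest blocked p of the members, with 224% and 197% against 98.3% and 121% (0.95 ± 0.27, adjusted p = 1 in limma, and 0.30 with the block). For Cdh10 the values were 142% and 123%, against 236% and 159.6% (-0.56 ± 0.26, adjusted p = 0.31 with the block in limma). Cdh13 had 486% and 756% in Chir_11-16, against 1068% and 1005% in Wibi_0-11 (-0.77 ± 0.32), and Cdh9 had 13.9% and 17.8%, against 24.6% and 31.8% (-0.83 ± 0.44). No member was 2-fold apart without overlap, with 1.61% of all genes, and 11 of 26 did not overlap at any size, with 34.8% of all genes.

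Between the 2 agonist schedules (Chir_8-16 against Chir_11-16) no member was called in either fit, with 0 genes called without the block, 976 at an unadjusted p under 0.05, and 0.00783% called with it. Pcdh7 was nearest, with 73.8% and 88.0% against 136% and 127% (-0.71 ± 0.17, adjusted p = 0.977 in limma, and 0.253 with the block). Cdh13 had 862% and 1207% against 486% and 756% (0.75 ± 0.32), and Pcdh10 had 719% and 491% against 1026% and 748% (-0.56 ± 0.34, adjusted p = 0.275 with the block in limma). None was 2-fold apart without overlap, with 2.33% of all genes, and 9 of 26 did not overlap at any size, with 26.1%. In limma 1 member had an unadjusted p under 0.05 without the block (3.82% of all genes) and 5 with it (11.7%).

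Keeping the inhibitors to day 16 rather than day 11 (Wibi_0-16 against Wibi_0-11) gave no called member in either fit, with 0 genes called without the block, 666 at an unadjusted p under 0.05, and 0.0117% called with it. No member was 2-fold apart without overlap, with 1.43% of all genes, and 9 of 26 did not overlap at any size, with 28.3%. In limma 0 members had an unadjusted p under 0.05 without the block (2.61% of all genes) and 1 with it (10.8%). That was Cdh15, at 18.1% and 18.5% in Wibi_0-16, against 9.48% and 11.8% in Wibi_0-11 (0.79 ± 0.35). Cdh1 was not well above background on 3 of these 4 arrays. A test for any difference among the 4 culture groups called no member in either fit, with 0 genes called without the block and 0.0548% with it. In that test 4 members had an unadjusted p under 0.05 in limma without the block (8.84% of all genes) and 11 with it (22.9%). The 4 comparisons of single groups share samples, and 3 of them share Wibi_0-11.

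Of 53 listed partners and relatives of cadherins, 42 were tested in the cultures. Without the block none was called in limma in the pooled agonist comparison (0.00783% of all genes were), and with it 1 was, where 3.40% of all genes were. That gene was Clstn2, a calsyntenin with cadherin repeats found at synapses, with 979% and 659% in Chir_8-16 and 1592% and 989% in Chir_11-16, against 2311% and 2097% in Wibi_0-16 and 3041% and 1421% in Wibi_0-11 (-1.09 ± 0.31, adjusted p = 0.147 in limma, and 0.0494 with the block). Celsr1, a receptor of planar cell polarity with cadherin repeats, was higher without overlap, at 1012 to 1989% in the agonist cultures and 561 to 963% in the inhibitor-only cultures (1.05 ± 0.26, adjusted p = 0.111 in limma, and 0.0564 with the block). None of the 16 catenins and linkers was called in any comparison in either fit, and their median difference in the pooled comparison was -0.07. Snai2, a repressor of Cdh1 in epithelial cells, had 3.42% and 4.36% in Chir_8-16, against 10.9% and 10.3% in Wibi_0-11 (-1.45 ± 0.27, adjusted p = 0.238 in limma), and Cdhr1 had 71.1% and 47.2%, against 218% and 112% (-1.43 ± 0.42, adjusted p = 0.406 in limma). Of 34 clustered protocadherin genes tested, 0 were called in any comparison of groups in either fit.

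Members read by several probes allow a check within the gene. Over the 12 arrays, which share groups and slides, the log2 signals of the 2 probes correlated at 0.96 for Cdh2, 0.90 for Pcdh10 and -0.59 for Cdh11. Among pairs of the genes with more probes, the correlation ran from 0.13 to 0.53 for Cdh4, 0.47 to 0.83 for Pcdh9, -0.58 to 0.86 for Pcdh7 and -0.54 to 0.95 for Pcdh15. The probes of Cdh2, Pcdh9 and Pcdh10 thus ran the same way, and those of Cdh11, Pcdh7 and Pcdh15 did not all do so. For Cdh11 the probe used above had 27.4 to 73.0% in cultures against 83.2 to 98.0% in tissues, and its other probe had 11.1 to 38.1% in cultures against 12.2 to 18.0% in tissues. No direction is therefore given for Cdh11.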

How the data were processed

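Single-colour Agilent arrays of 60-base probes were read. Per the file headers, the deposited intensity values come from Agilent Feature Extraction 10.7.3.1, with spatial and multiplicative detrending on; the submitters' processing notes name Agilent Feature Extraction 9.1 and limma. The deposited series table holds log2 values that the authors put on a common scale, column medians 6.18 to 6.22, in a way not given in the sources used here; it served as an alternative. Gene names are those of the embryo files, joined by probe to all arrays.

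Spots marked non-uniform or as population outliers were dropped, spots of a probe averaged, and log2 processed signal taken minus the array's 75th percentile of non-control spots (641 to 1135). Of the spots, 59.1 to 71.2% were well above background. Of 55681 probes, 36430 passed (well above background on both arrays of a culture group), and the brightest stood for each of 25540 genes; 223 had no unmarked spot on some culture array. For E15 tissues the brightest probe well above background in any of them was used, and dim spots were set to the lowest signal well above background on that array. The 12 arrays held 0 identical pairs and 0 saturated spots.

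limma 3.58.1 in R 4.3.3 (lmFit, eBayes, trend off) fitted 1 mean per group over the 8 culture arrays, without a block as the main fit; the agonist comparison fitted 1 mean for 4 agonist and 1 for 4 inhibitor-only arrays. The method was tested on simulated data. Replicate number and slide coincide, and deviations from group means correlated at 0.578 to 0.667 between groups, so the numbers pair the samples. Named are members called in either fit, those not overlapping and 2-fold apart, those marking a tissue, and 13 further members, with 53 partners and relatives and marker lists for 13 cell types or regions. Members and lists were chosen with earlier results of these data known. Whether replicates came from separate cultures is not stated, so p-values measure the spread between these arrays.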

Additional observations from a re-analysis of the deposited data

Results flagged for a closer look

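Each side of the pooled comparison held 4 arrays, and in 60 such sets of 4 with a member well above background on at least 1 array, 5 held an array that lay far from the other 3 by Dixon's 95% criterion on log2 signal; chance flags about 1 in 20 sets. Cdh1 stood at 12.8% in Wibi_0-11 replicate 2, against 0.673 to 0.828% in the other inhibitor-only cultures. Cdh15 stood at 23.8% in Chir_8-16 replicate 2, against 10.6 to 11.5% in the other agonist cultures. Cdh24, not tested in the cultures, stood at 5.48% in Chir_8-16 replicate 1, against 1.88 to 2.13% in the other agonist cultures. Cdh26 stood at 388% in Chir_11-16 replicate 1, against 559 to 596% in the other agonist cultures. Pcdh19 stood at 515% in Wibi_0-16 replicate 1, against 642 to 662% in the other inhibitor-only cultures.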

How the results depend on the processing

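Without a block, no comparison called a member when the arrays were scaled to the median or by quantiles, after normexp plus quantiles, in the deposited table, with no filter on dim probes or the mean of passing probes, nor with any 1 culture array left out (0 to 0 members in each of the 6 tests). In the pooled agonist comparison the replicate block called 2 members (Cdh10 and Pcdh18) and a trended prior 1 (Pcdh18); the block changed no other call of a member. An alternative added after seeing the data, the block with 1 array left out, called 0 to 0 members in each test, and 0 to 3 genes of all in the pooled comparison and 0 to 110 in Chir_8-16 against Wibi_0-11. Over all genes, the calls without a block were 3, 0, 0, 0, 2 and 0 in the order of Chir_8-16, Chir_11-16 and Wibi_0-16 against Wibi_0-11, Chir_8-16 against Chir_11-16, the pooled comparison and the test of any difference. With the block they were 77, 4, 3, 2, 869 and 14, under quantile normalization 11, 3, 3, 1, 0 and 6, and under median scaling 5, 2, 0, 1, 15 and 1. Normexp plus quantile normalization called 12 genes in the pooled comparison and 3 in the test of any difference, and a trended prior called 563 and 2 there and 1 in Chir_8-16 against Chir_11-16. No filter on dim probes called 0 genes in all 6 tests, and the mean of probes called 0 in Chir_8-16 against Wibi_0-11. Without a block and 1 array left out, 0 genes were called. Members at least 2-fold higher in 1 E15 tissue numbered 5, 5 to 6 under the other scalings and probe rules, 11 at 1.5-fold and 1 at 3-fold; over all genes they were 1815, 4140 and 764. Members 2-fold apart without overlap (added after seeing the data) were, for Chir_8-16 against Wibi_0-11, 1 in the main setting, 0 after normexp plus quantiles and in the deposited table, and 2 with median scaling. For Chir_11-16 against Wibi_0-11 and for Chir_8-16 against Chir_11-16 they were 0 in the main setting and 1 (Cdh13) after normexp plus quantiles and in the deposited table. Median scaling moved the median of all genes in Chir_8-16 against Chir_11-16 to -0.12, from 0.04, and the members to 9 higher and 17 lower, from 14 and 12; in Chir_8-16 against Wibi_0-11 they became 6 and 20, from 10 and 16. Quantile normalization gave 11 and 15 in Chir_8-16 against Chir_11-16. Of 1512 differences recomputed for named members, 138 changed sign, none of them a called one, and the largest such main difference was 0.56. Pcdh18 in the pooled comparison stayed between 0.81 and 0.93 over 7 other settings without a block (adjusted p 0.045 to 0.206 in limma), and Cdh10 between -0.73 and -0.61 (0.0737 to 0.466). The cause of these shifts was not tested. Leaving out an array of a 2-array group assumes that the lone array varies like the others. The culture scanner files give a median but no mean signal, so normexp used the median. Signal over background limits the 9 members not tested in the cultures.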
